A study of Homo sapiens with 16 samples.

Results

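The 8 erythroid master transcription factor genes GATA1, TAL1, KLF1, LMO2, LDB1, NFE2, GFI1B and ZFPM1 were examined for acetylation of histone H3 at lysine 27 (H3K27ac) in K562, a human erythroleukemia cell line. For each gene, all peaks with a q-value of at most 1% (-log10 q of at least 2) that overlapped the gene body plus 10 kb on either side were taken from every peak list, and peaks within 5 kb of a transcription start site (TSS) were described apart from the rest. The rule took 8 of 19630 protein-coding genes, 1673 of the 1065840 peaks in the lists, and 97 of the 170194 regions formed by merging the lists. Peak lists came from 14 ChIP-seq libraries made with the H3K27ac antibody ab4729, which had no treatment other than the change in antibody and chromatin amounts. In 7 fixed-antibody libraries, 0.25 µg of antibody was incubated with 0.31 to 20 µg of DNA_chrom, the DNA measured directly in the chromatin input, so the antibody titer fell through 32, 16, 8, 4, 2, 1 and 0.5. Each library is named by its µg of DNA_chrom and its titer, here 0.31-T32, 0.62-T16, K562-H3K27ac-1.25-T8 (a title in full), 2.5-T4, 5-T2, 10-T1a and 20-T0.5. In 7 normalized libraries, the same amounts of DNA_chrom received antibody at titer 1 (0.31-T1, 0.62-T1, K562-H3K27ac-1.25-T1, 2.5-T1, 5-T1, 10-T1b and 20-T1). Within the fixed-antibody arm, titer and DNA_chrom cannot be told apart. Peaks of each arm were called against a different input, so the part of the input or preparation in any contrast of the arms cannot be told apart from that of titer. There was 1 library per condition, and p-values describe trends over libraries and not the spread between replicate cultures. Only 10-T1a and 10-T1b shared a condition. Their titles tell them apart by the letter alone, the first was read as the fixed-antibody and the second as the normalized library, and with them exchanged the counts of genes called below were the same where this was run.

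H3K27ac marks nucleosomes of active promoters and enhancers. GATA1 binds the GATA motif and, with the basic helix-loop-helix factor TAL1, the bridging protein LMO2 and the self-associating cofactor LDB1, forms a complex that occupies erythroid enhancers and brings distant enhancers to their promoters. KLF1 binds CACCC boxes of globin and other red cell genes, NFE2 pairs with small Maf proteins at NF-E2 sites such as those of the globin locus control region, GFI1B represses genes through the LSD1 and CoREST proteins, and ZFPM1 (also called FOG1) binds the zinc finger of GATA1. Several of these genes are themselves bound by the factors they encode, and K562 expresses the erythroid program.

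The TSS of the genes fell into peaks or into gaps between peaks, and the promoter sequences below, 250 bases before to 50 after the TSS from RefSeq (GRCh38.p14), are shown for 2 genes of the first kind and 3 of the second. RefSeq entries were used for 6 of the 8 genes, and LMO2 and NFE2 had none in the table used. Capitals mark the words searched on either strand: the GATA words AGATAA and also TGATAA, then AGATAG and also TGATAG, the E-box word CAGCTG with the related word CAGATG, the CACCC box word CCACACCC, the GC box word CCCCGCCC and the NF-E2 word TGAGTCA. The first 2 lines are promoters covered whole in all 14 lists, and the last 3 are promoters with no list covering them whole.
GATA1 promoter (chrX:48786340-48786639, + strand): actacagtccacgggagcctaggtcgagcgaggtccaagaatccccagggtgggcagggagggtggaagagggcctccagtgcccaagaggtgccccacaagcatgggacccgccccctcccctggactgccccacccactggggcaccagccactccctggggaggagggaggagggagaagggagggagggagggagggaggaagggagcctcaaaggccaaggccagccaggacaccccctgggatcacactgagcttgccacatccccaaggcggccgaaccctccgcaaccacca
KLF1 promoter (chr19:12887152-12887451, - strand): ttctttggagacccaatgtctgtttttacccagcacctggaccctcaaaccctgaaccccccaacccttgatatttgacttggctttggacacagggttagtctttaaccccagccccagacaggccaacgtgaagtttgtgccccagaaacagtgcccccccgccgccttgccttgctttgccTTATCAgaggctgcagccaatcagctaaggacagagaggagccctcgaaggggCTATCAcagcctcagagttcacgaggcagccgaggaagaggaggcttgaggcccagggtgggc
TAL1 outer promoter (chr1:47232286-47232585, - strand): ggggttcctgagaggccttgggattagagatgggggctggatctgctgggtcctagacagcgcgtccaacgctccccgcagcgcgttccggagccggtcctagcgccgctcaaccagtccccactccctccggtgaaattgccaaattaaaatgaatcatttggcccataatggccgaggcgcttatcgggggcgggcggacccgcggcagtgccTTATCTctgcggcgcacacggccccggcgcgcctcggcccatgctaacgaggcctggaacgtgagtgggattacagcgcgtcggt
GFI1B inner promoter (chr9:132978444-132978743, + strand): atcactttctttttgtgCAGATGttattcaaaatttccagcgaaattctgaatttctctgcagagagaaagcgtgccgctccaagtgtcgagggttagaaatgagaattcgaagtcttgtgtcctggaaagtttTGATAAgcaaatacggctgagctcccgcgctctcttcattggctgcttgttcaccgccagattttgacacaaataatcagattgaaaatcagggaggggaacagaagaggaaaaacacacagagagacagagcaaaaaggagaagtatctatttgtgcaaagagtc
ZFPM1 promoter (chr16:88453030-88453329, + strand): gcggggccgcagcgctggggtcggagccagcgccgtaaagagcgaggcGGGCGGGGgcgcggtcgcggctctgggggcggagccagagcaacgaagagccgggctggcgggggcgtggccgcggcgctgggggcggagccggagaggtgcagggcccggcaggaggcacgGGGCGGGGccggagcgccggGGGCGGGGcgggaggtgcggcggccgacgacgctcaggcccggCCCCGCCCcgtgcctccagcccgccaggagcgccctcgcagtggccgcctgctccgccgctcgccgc

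The KLF1 promoter held 2 GATA words, at -66 to -61 and -13 to -8 from the TSS, and the outer TAL1 promoter held 1, at -35 to -30. In the inner GFI1B promoter 1 GATA word lay at -116 to -111 and 1 E-box word at -233 to -228. The ZFPM1 promoter, with 83.0% G and C, held 4 GC box words and no GATA word, and none of the words searched was in the 300 bases of the GATA1 promoter. Of 22130 promoters of protein-coding genes of the same length, 19.97% held a GATA word, 27.6% an E-box word, 32.1% a CACCC or GC box word and 4.01% the NF-E2 word. These matches describe letters in the window and were not tested as binding sites.

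At GATA1, KLF1, LMO2, NFE2 and the inner of the 2 TAL1 starts, the TSS was inside a peak in all 14 lists, which was the case for 9.80% of 25950 TSSs of protein-coding genes. The outer TAL1 TSS, the inner GFI1B TSS and the ZFPM1 TSS were inside a peak in 0 of 14 lists, as were 56.5% of the 25950 TSSs. That share is not one of gaps between peaks, as it also counts TSSs with no peak near them. Of 19630 genes, 6635 had no peak within 5 kb of a TSS in any list. At ZFPM1, the gap between the flanking peaks was 265 to 375 bp long in the 14 lists, from a median of 278 bp upstream to 23.5 bp downstream of the TSS. Downstream of the inner GFI1B TSS the first peak began at a median of 70.5 bp. LDB1, whose listed TSS lies within its gene body, had its TSS in a gap in 10 of 14 lists, with flanking peaks at medians of 131 bp upstream and 52.0 bp downstream.

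**Figure D1:**
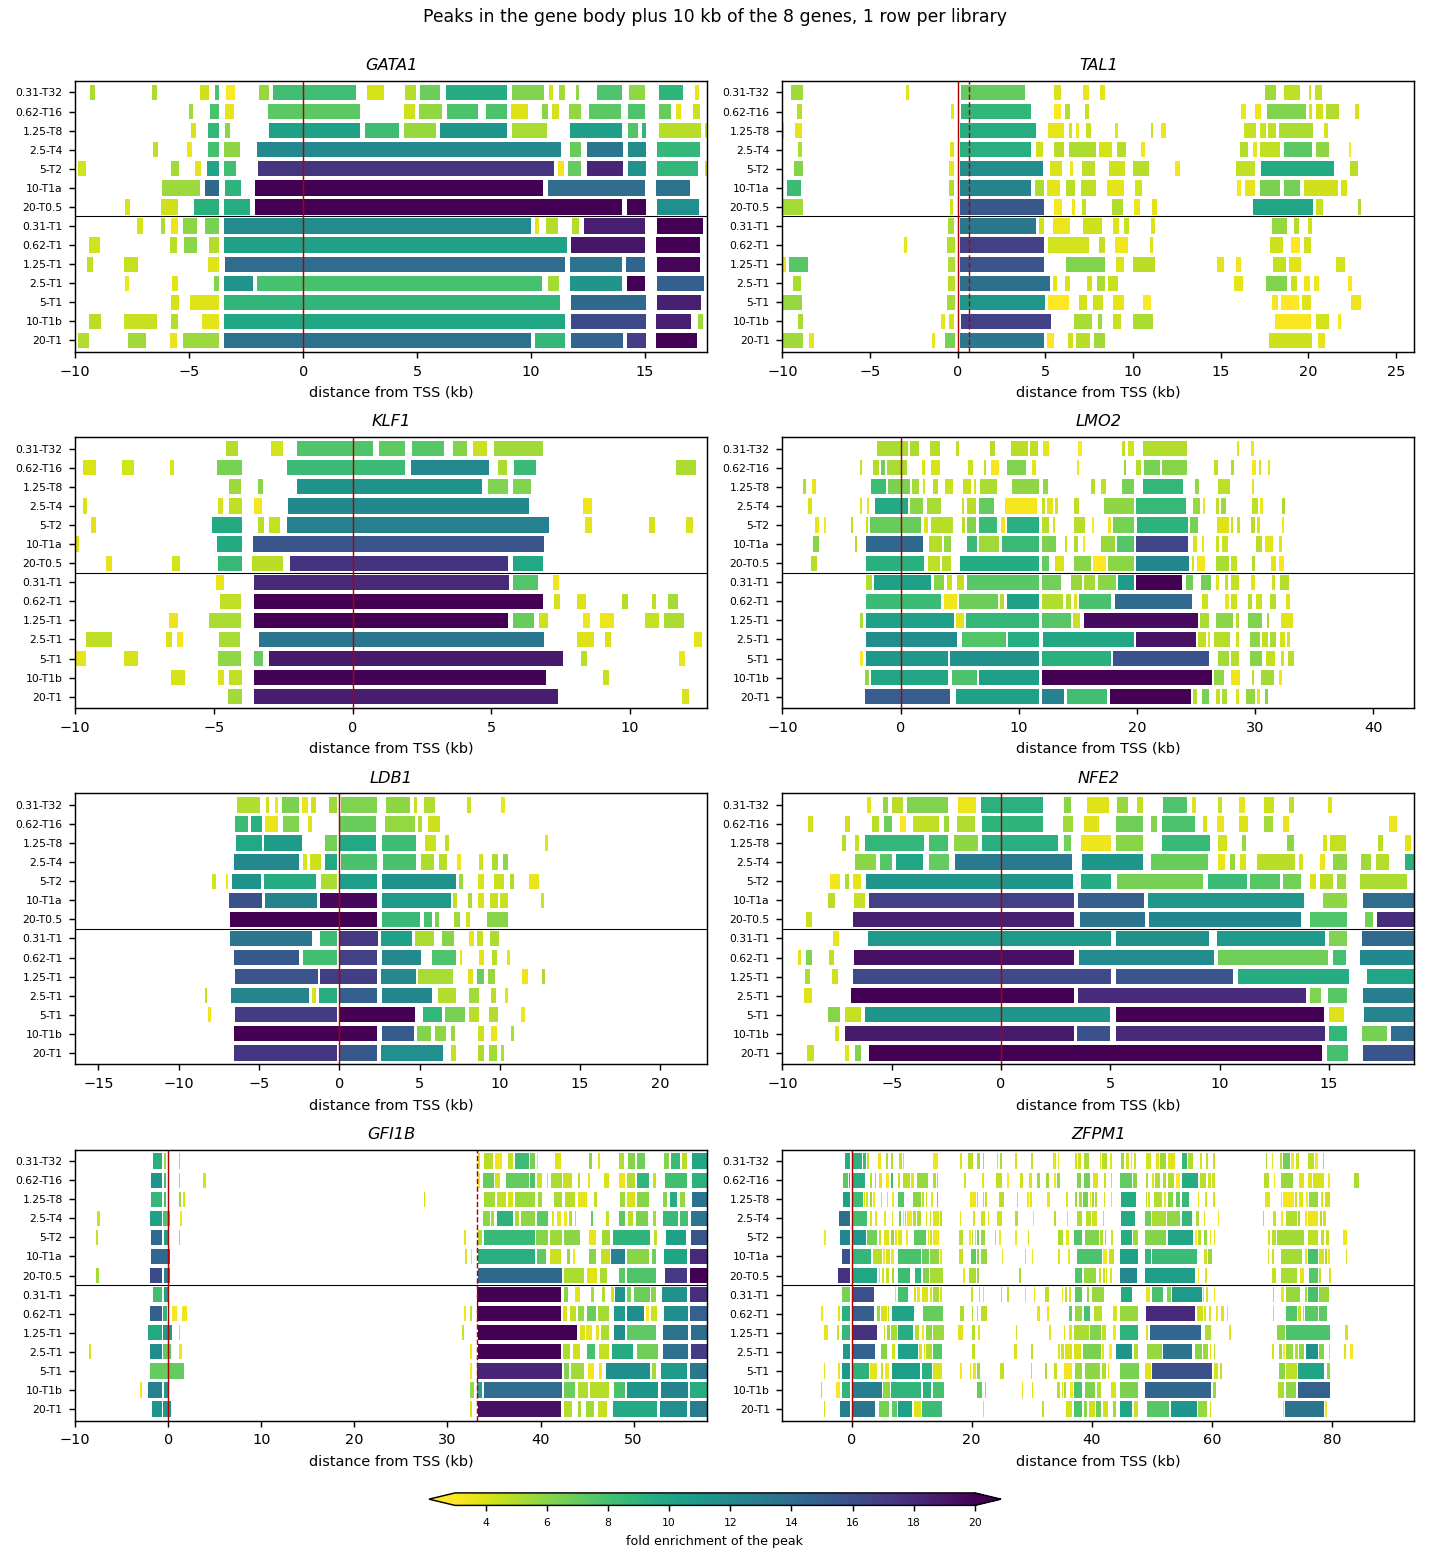
Peaks in the windows of the 8 genes. Each row is 1 library (7 fixed-antibody above the line, 7 normalized below), each bar 1 peak coloured by fold enrichment, the x axis is distance in kb from the outermost listed TSS in the direction of transcription, and red lines are TSSs. Around NFE2 the libraries of titer 32 to 4 had 17 to 20 short peaks, and the normalized libraries 6 to 8 longer ones.

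GATA1 (chrX:48786590-48794311, gene ID 2623), the DNA-binding factor at the centre of the erythroid program, was among the most broadly covered genes. From titer 32 to 0.5 the peaks of the fixed-antibody libraries covered 55.6, 49.99, 61.8, 71.3, 72.5, 77.2 and 79.2% of its 27722 bp window, against 72.4% to 83.0% in the normalized libraries (median 77.6%). The 4 libraries of titer 32 to 4 were below every normalized library. A core of 3650 bp from -1325 to +2324 bp around the TSS was covered in all 14 lists. This core lay in a merged region from -3480 to +15029 bp, and in 4 of the 7 fixed-antibody libraries and all 7 normalized libraries a single peak of 12510 bp or more ran along the gene. The region ended near the starts of HDAC6, a deacetylase gene with TSSs from 14808 to 15477 bp, and a further region from +15483 to +17565 bp had peaks in all 14 lists.

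TAL1 (chr1:47216290-47232335, gene ID 6886) was covered over 21.2% of its window in 0.31-T32 and 41.8% in 5-T2, with a median of 33.6% in the fixed-antibody libraries, and over 25.8% to 35.9% in the normalized libraries, with a median of 32.8%. The arms overlapped throughout. A core of 3658 bp from +199 to +3856 bp was covered in all 14 lists, and the widest peak of every list, 3680 to 5110 bp, varied less than at the other 7 genes. Away from the TSS, a region at the 3' end from +15747 to +22196 bp had peaks in all 14 lists, with fold enrichments of 5.18 to 10.0 in the fixed-antibody libraries and 3.80 to 6.19 in the normalized libraries. An upstream region from -10119 to -8529 bp had peaks in 12 lists and none in 0.31-T1 and 0.62-T1.

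LMO2 (chr11:33858576-33892076, gene ID 4005), the LIM-domain protein that links TAL1 to LDB1, had covered shares of 23.6, 23.4, 32.9, 39.6, 45.1, 45.8 and 52.1% from titer 32 to 0.5, against 51.4% to 61.2% in the normalized libraries, with a median of 58.8%. Only 20-T0.5 among the fixed-antibody libraries reached into the normalized range. The TSS used for LMO2 was the upstream end of its gene span, so any start within the gene was not counted as a TSS. In the normalized libraries the strongest region of the window was not at this TSS but within the gene. A region from +11941 to +26375 bp had fold enrichments of 4.94 to 16.5 in the fixed-antibody libraries (median 8.73) and 14.2 to 21.1 in the normalized libraries (median 19.5). In the region at the TSS, from -2986 to +11760 bp, they were 5.14 to 14.3 (median 9.37) and 10.3 to 15.1 (median 10.5). The region within the gene was the stronger of the pair in all 7 normalized libraries and in 3 of 7 fixed-antibody libraries. Cores of 1734 bp from +22134 to +23867 bp and 1384 bp from +20574 to +21957 bp were covered in all 14 lists, beside a core of 1646 bp from -1058 to +587 bp at the TSS. Further regions of the gene body, from +26513 to +28746 bp and from +29227 to +31798 bp, also had peaks in all 14 lists, at fold enrichments of 3.53 to 6.27.

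LDB1 (chr10:102102088-102121442, gene ID 8861) had 1 merged region in all 14 lists, from -6880 to +7848 bp around its listed TSS and across the upstream end of its gene body. Its window was covered over 21.8% to 39.3% in the fixed-antibody libraries (median 32.01%) and over 34.0% to 38.1% in the normalized libraries (median 35.6%). Libraries of titer 32 to 4 lay below the normalized range, and 5-T2 and 10-T1a lay above it. Cores on both sides of the TSS, 2212 bp from +100 to +2311 bp and 970 bp from -3497 to -2528 bp, were covered in all 14 lists.

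KLF1 (chr19:12884422-12887201, gene ID 10661) is short, with a gene body of 2780 bp, and peaks reached beyond it on both sides. The covered share of its window was 37.3% to 52.9% in the fixed-antibody libraries (median 47.6%) and 46.5% to 60.1% in the normalized libraries (median 54.9%), and the arms overlapped. A region from -3616 to +7594 bp in all 14 lists took in the TSS of DNASE2, at +5752 bp. Behind the 2 starts of GCDH, at -3928 and -3959 bp, a separate region from -5171 to -3974 bp had peaks in all 14 lists. These neighbours lie in the window and are counted in the covered share.

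NFE2 (chr12:54292111-54301015, gene ID 4778), the large subunit of the NF-E2 heterodimer, had the highest covered share of the 8 genes over the 14 lists, a median of 83.0%. The fixed-antibody libraries rose without exception from titer 32 to 0.5, with 38.0, 43.5, 55.7, 67.3, 80.2, 82.5 and 83.5%, whereas the normalized libraries stayed between 82.1% and 86.6%. The 5 libraries of titer over 1 were all below the normalized libraries. The window held 17, 20, 17, 17, 13, 7 and 7 peaks in the fixed-antibody libraries and 6 to 8 in the normalized libraries, and in 20-T1 a single peak of 20753 bp took up most of it. A core of 2755 bp from -849 to +1905 bp was covered in all 14 lists, and beyond the gene a region from +16422 to +20272 bp was also present in all 14, with fold enrichments of 6.85 to 17.8. This region runs past the end of the window, and its part inside counts in the covered share. Genes whose TSS lies outside a window were not looked for, so which gene the region belongs to was not tested.

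GFI1B (chr9:132945531-132993434, gene ID 8328) has 2 listed starts, at 132945531 and 132978694, and the peaks differed between them. At the outer start, a region from -2190 to +2060 bp also held the TSS of TSC1, which lies 915 bp upstream, and had fold enrichments of 8.68 to 16.3 in the fixed-antibody libraries and 7.11 to 14.9 in the normalized libraries, with medians of 11.1 in both. The region that begins at the inner start, from +33211 to +52571 bp, had 6.04 to 14.2 in the fixed-antibody libraries (median 8.97) and 14.1 to 22.7 in the normalized libraries (median 20.5). Of the peaks reaching within 5 kb of either TSS, the strongest had its summit beside the outer start in all 7 fixed-antibody libraries, at -1250 to -754 bp, and downstream of the inner start in all 7 normalized libraries, at 4840 to 6125 bp from it. In 6 of these 7 the summit of that long peak was itself more than 5 kb from the start, and among peaks with a summit within 5 kb the strongest had fold enrichments of 7.11 to 14.9 in the normalized libraries. Beyond the end of the gene, regions from +52811 to +55839 bp and from +56027 to +61066 bp had peaks in all 14 lists, with a core of 1593 bp from +56311 to +57903 bp. The covered share of the whole window was 19.2% to 34.5% (median 26.0%) in the fixed-antibody libraries and 30.6% to 38.0% (median 35.8%) in the normalized libraries.

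ZFPM1 (chr16:88451769-88537031, gene ID 161882), the longest gene of the set, had 32 merged regions, of which 6 had peaks in all 14 lists. The covered share was 22.9% to 41.9% in the fixed-antibody libraries (median 33.7%) and 32.4% to 44.5% in the normalized libraries (median 39.4%), with overlapping arms. The regions on either side of the TSS gap differed in strength: upstream, from -2656 to -258 bp, the median fold enrichment was 12.1 in the fixed-antibody and 9.18 in the normalized libraries, and downstream, from +8 to +6462 bp, it was 9.09 and 14.7. The summit of the strongest TSS peak was upstream of the TSS in 6 of 7 fixed-antibody libraries and downstream in 6 of 7 normalized libraries. Within the gene body, regions from +6580 to +15431, +36999 to +47921, +48835 to +60036 and +70915 to +79804 bp had peaks in all 14 lists. The third of these, with medians of 8.77 in the fixed-antibody and 14.4 in the normalized libraries, had the highest mean percentile of the 4.

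**Figure D2:**
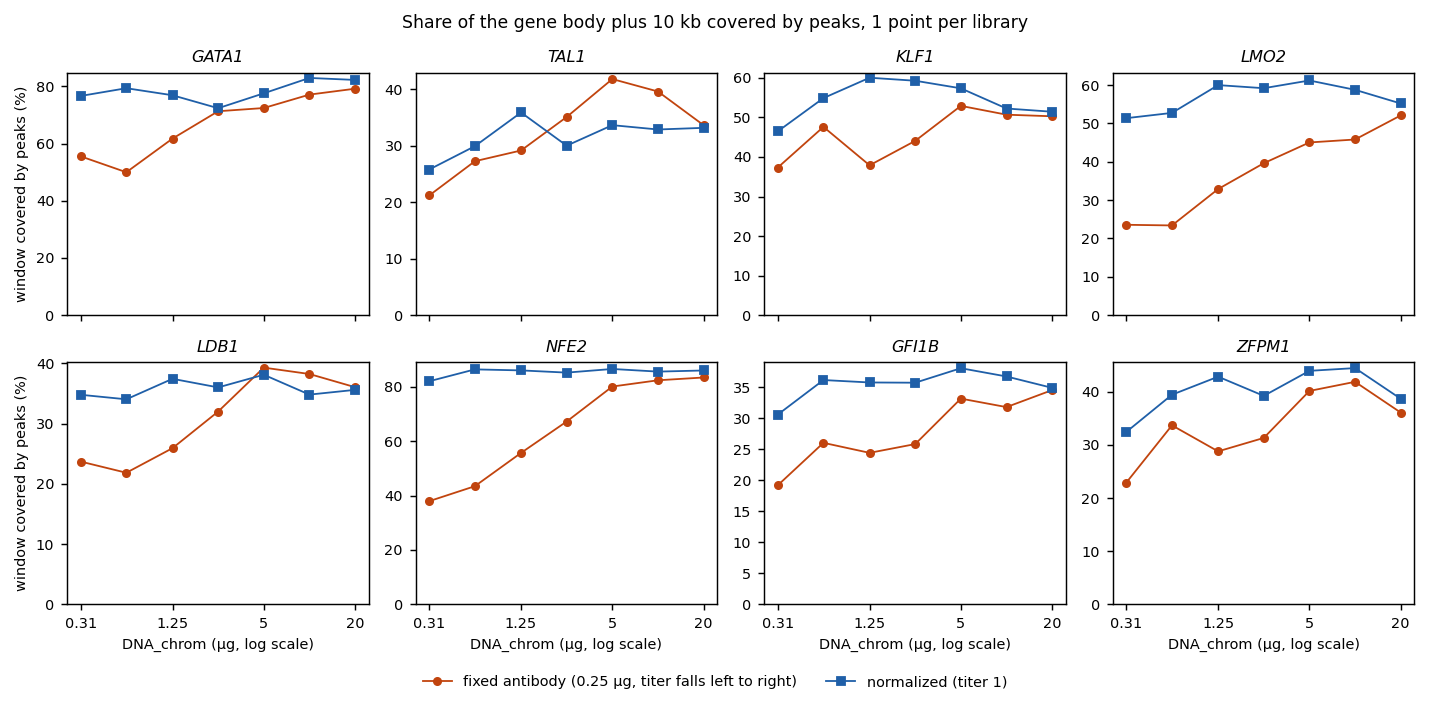
Share of the gene window covered by peaks (y axis, %) against DNA_chrom (x axis, µg, log scale) for the 8 genes. Orange circles are the 7 fixed-antibody libraries, whose titer falls from 32 to 0.5 from left to right, and blue squares the 7 normalized libraries at titer 1. For NFE2 the fixed-antibody libraries climb from 38.0% to 83.5% while the normalized libraries stay between 82.1% and 86.6%.

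The covered share was correlated with log2(titer), which here runs opposite to DNA_chrom, over the 7 fixed-antibody libraries, with exact permutation tests and Benjamini-Hochberg adjustment over 14443 genes. The covered share fell with rising titer in 5 of 8 genes (adjusted p under 0.05), LMO2, NFE2, GATA1, GFI1B and LDB1, beside 52.3% of all genes tested, and none rose. The median r was -0.910 over the 8 genes and -0.834 over all genes. For NFE2, Pearson's r was -0.972 (exact permutation p = 0.000397, adjusted p = 0.00914), Spearman's rho was -1 (p = 0.000397), and r was -0.983 without the 2 libraries of the highest and lowest titers (p = 0.0167, the smallest 5 libraries allow). For LMO2, r was -0.979 (exact permutation p = 0.000794, adjusted p = 0.00969), rho -0.964 (p = 0.00278), and r -0.962 without those libraries (p = 0.0167). GATA1 had an r of -0.940 (exact permutation p = 0.00238, adjusted p = 0.0137), a rho of -0.964 (p = 0.00278) and an r of -0.951 without them (p = 0.0167). In GFI1B, r was -0.927 (exact permutation p = 0.00476, adjusted p = 0.0187) and rho -0.857 (p = 0.0238), and without those libraries r was -0.813 (p = 0.15), so the relation rests in part on them. LDB1 had an r of -0.892 (exact permutation p = 0.0131, adjusted p = 0.032), a rho of -0.821 (p = 0.0341) and an r of -0.961 without them (p = 0.0333). TAL1, ZFPM1 and KLF1 had r values of -0.799, -0.788 and -0.740 and did not pass, with adjusted p-values of 0.0616, 0.0641 and 0.0992 by the exact permutation test. Without the bases within 1 kb of the TSSs of DNASE2 and GCDH, r of KLF1 was -0.499.

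The count of 5 genes was 3 when 0.31-T32 was left out and 2 when 2.5-T4 was left out, and r stayed negative for all 8 genes without any single library. Lists of low titer also covered more of the genome, and when bases covered in a window were expressed per Mb covered by the whole list, the direction turned to a rise with titer in 6 of the 8 genes (r 0.535 to 0.892) and stayed negative in LMO2 (-0.464) and NFE2 (-0.619), with 0 of 8 passing the adjusted exact permutation test. On that scale, 1 of 8 genes, KLF1, rose at an unadjusted exact permutation p under 0.05 (p = 0.00516), beside 15.3% of all genes.

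**Figure D3:**
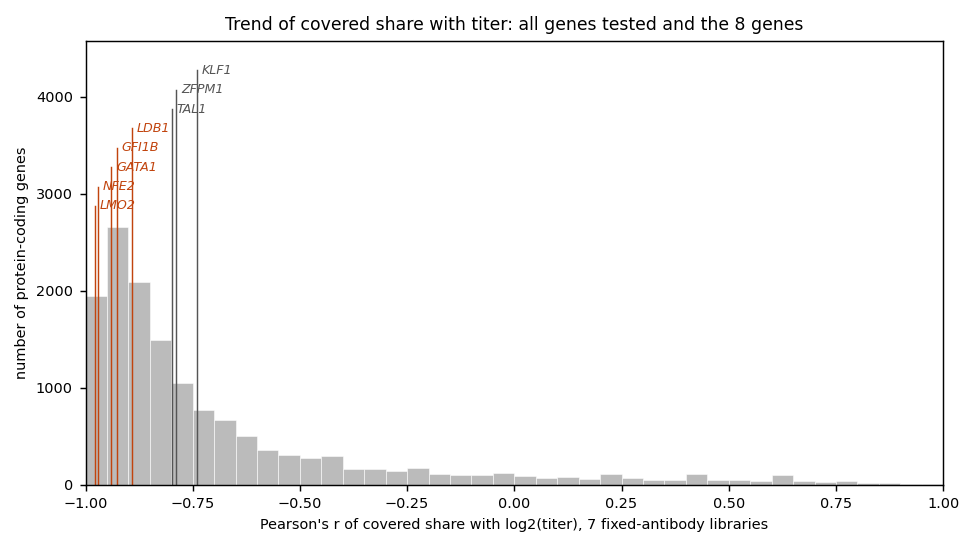
Distribution over 14443 genes of Pearson's r between covered share and log2(titer) in the 7 fixed-antibody libraries (x axis), with the number of genes per bin on the y axis. Vertical lines mark the 8 genes, in orange where the adjusted p was under 0.05 and in grey otherwise. The lines run from -0.979 for LMO2 to -0.740 for KLF1, and the median of all genes is -0.834.

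In the normalized arm the covered share was correlated with log2(DNA_chrom) in the same way. Pearson's r was positive in all 8 genes, from 0.112 for KLF1 to 0.602 for TAL1, and 0 of 8 passed the exact permutation test, either adjusted over 14450 genes or at an unadjusted p under 0.05, beside 20.1% of all genes that rose at an unadjusted p under 0.05. Spearman's rho gave 0 of 8 as well. Per Mb covered by the whole list the direction turned, and r was negative in all 8 genes, from -0.472 for TAL1 to -0.87 for GFI1B, with a median of -0.787 beside 0.0215 for all genes. On that scale 5 of 8 genes, GFI1B, KLF1, NFE2, LDB1 and LMO2, fell at an unadjusted exact permutation p under 0.05 (p = 0.00714 to 0.044), beside 6.08% of all genes, and none passed the adjustment (adjusted p = 0.303 to 0.743 by the exact permutation test). On the scale of the covered share, the smallest unadjusted p-value among the 8 genes was 0.15, for TAL1 in this exact permutation test.

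At matched DNA_chrom, the normalized libraries covered more of the window than the fixed-antibody libraries at all 6 amounts other than 10 µg in 6 of 8 genes, beside 41.8% of 14753 genes. In the gene body alone the count was 3 of 8, LMO2, NFE2 and ZFPM1, and the share of all genes is not given for it. For the 6 genes higher over the whole window the exact sign-flip p was 0.03125, the smallest that 6 pairs allow. The mean difference was 24.1 percentage points ± 17.9 (SD of 6 pairs) for NFE2, from 61.3% in the fixed-antibody to 85.4% in the normalized libraries. In LMO2 it was 20.5 ± 9.98 (36.1% and 56.6%), in GATA1 12.5 ± 11.3 (65.1% and 77.5%) and in KLF1 9.90 ± 7.64 (45.0% and 54.9%). GFI1B differed by 8.002 ± 4.44 and ZFPM1 by 7.28 ± 4.19. LDB1 was higher at 4 of 6 amounts, by 6.20 ± 6.19 points on average (p = 0.125 by exact sign flips), and TAL1 at 3 of 6, by 0.0444 ± 5.76 points (p = 1 by exact sign flips). At 10 µg, where both libraries had titer 1, 10-T1b minus 10-T1a ranged from -6.72 points for TAL1 to 13.0 for LMO2, so for LMO2 a difference of that size was present without a difference in titer. It was 5.83 for GATA1, 4.94 for GFI1B, 3.19 for NFE2 and 1.56 for KLF1. The smallest differences at the other amounts were lower, 1.06, 0.361, 2.58 and 1.15 in these genes and 3.12 in LMO2. For ZFPM1 the values were 2.586 and 2.594. Being higher at all 6 amounts thus included differences below that between 2 libraries of 1 condition. Scaled to the bases covered by the whole list, the mean difference was negative in 6 of the 8 genes, all but LMO2 and NFE2.

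The change of the difference between the arms with DNA_chrom was examined next. For NFE2, normalized minus fixed was 44.1, 43.0, 30.4, 18.0, 6.47, 3.19 and 2.58 points from 0.31 to 20 µg. LMO2 went from 27.8 points at 0.31 µg to 3.12 at 20 µg and GATA1 from 21.1 to 3.07. The correlation of this difference with log2(DNA_chrom) over the 7 amounts was negative at an unadjusted exact permutation p under 0.05 in 5 of 8 genes, beside 20.2% of all genes. These were NFE2 (r = -0.968, exact permutation p = 0.000198), LMO2 (r = -0.952, exact permutation p = 0.00119), GFI1B (r = -0.912, exact permutation p = 0.00397), LDB1 (r = -0.902, exact permutation p = 0.00992) and GATA1 (r = -0.808, exact permutation p = 0.0313). None of the 8 genes, and none of 14753 genes, passed the adjustment, with adjusted p-values from 0.106 for NFE2 to 0.204 for GATA1 in these 5 genes, and Spearman's rho also gave 0 of 8 adjusted. In ZFPM1, TAL1 and KLF1 the r values were -0.684, -0.644 and -0.535 (exact permutation p = 0.0891, 0.128 and 0.222). Per Mb covered by the whole list, r turned positive in 5 genes, GATA1 (0.415), GFI1B (0.275), TAL1, KLF1 and ZFPM1, and stayed negative in LMO2 (-0.806), NFE2 (-0.797) and LDB1 (-0.417). Spearman's rho was -1 for NFE2, -0.964 for LMO2, -0.929 for GFI1B, -0.786 for LDB1 and -0.714 for GATA1 (exact permutation p = 0.0881 for GATA1).

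The peaks were also longer where titer was lower, a measure added after the peaks had been seen. From titer 32 to 0.5 the widest peak of the GATA1 window was 3650, 4050, 3999, 13354, 12971, 12632 and 16107 bp, and the normalized libraries had 12510 to 15025 bp. The ZFPM1 window had 1637 to 8271 bp in the fixed-antibody libraries and 4851 to 10979 bp in the normalized libraries, and its number of peaks was 46 to 53 at titers over 1 and 26 to 38 in the normalized libraries. By the exact permutation test, the widest peak shortened with titer in 6 of 8 genes (adjusted p 0.0237 to 0.0461), all but TAL1 and KLF1, beside 30.4% of all genes. With 7 libraries this count was fragile: it was 0 without any one of 0.31-T32, 0.62-T16, K562-H3K27ac-1.25-T8, 2.5-T4 or 20-T0.5, 3 without 5-T2 and 4 without 10-T1a, while r stayed negative in all 8 genes.

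**Figure D4:**
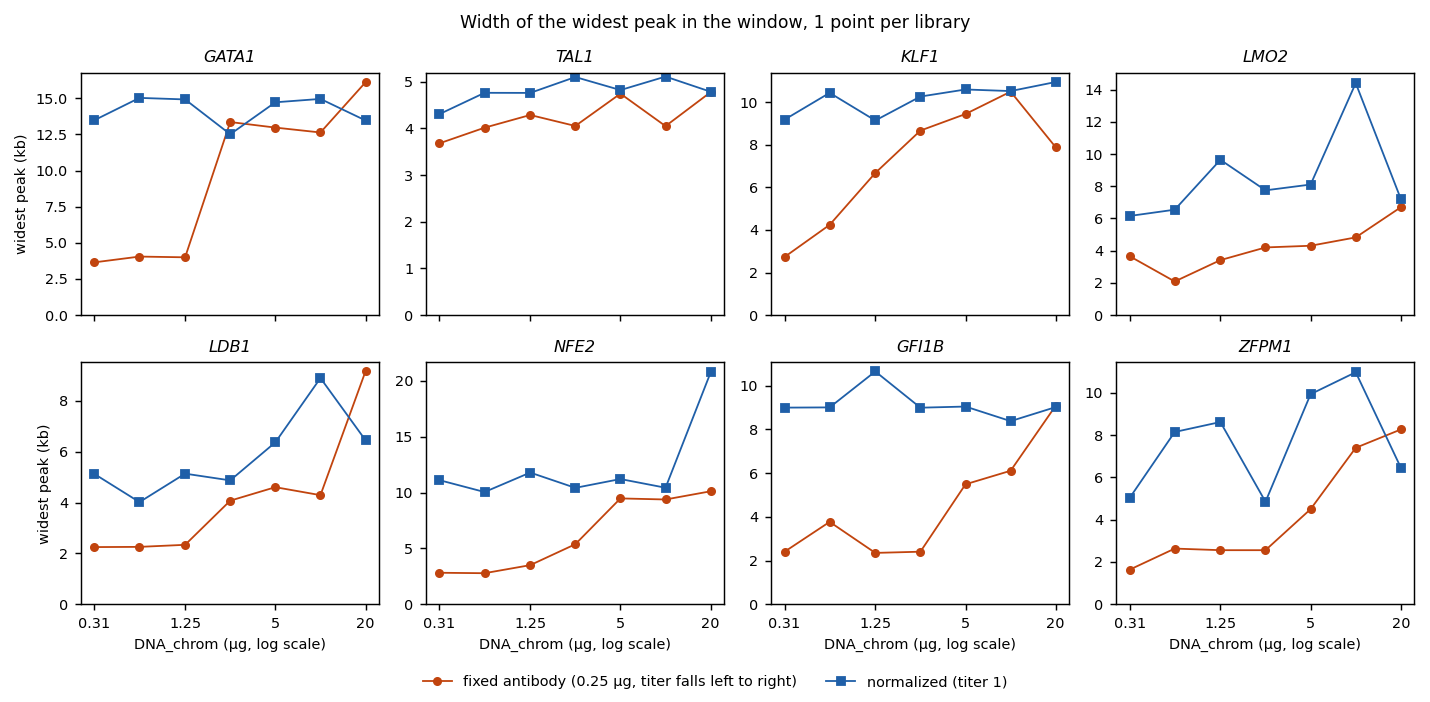
Width of the widest peak overlapping each window (y axis, kb) against DNA_chrom (x axis, µg, log scale). Orange circles are the 7 fixed-antibody libraries and blue squares the 7 normalized libraries. In GATA1 the widest peak was 3650 to 4050 bp in the 3 libraries of titer 32 to 8 and 12510 bp or more in the other 11 libraries.

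Near the TSS, all 8 genes had a peak reaching within 5 kb in all 14 lists, which held for 53.0% of 19630 genes. The summit of the strongest such peak could lie farther away, as at GFI1B in 6 normalized libraries. It lay at 10323 bp for LMO2 in 5-T1 and at -5347 and -5085 bp for LDB1 in 2.5-T4 and 20-T1. For NFE2 in 20-T1 it lay at 5781 bp, and no peak had a summit within 5 kb. The fold enrichment of the strongest peak reaching within 5 kb rose as the titer fell. At GATA1 it was 8.22, 7.86, 10.3, 12.0, 17.4, 20.2 and 25.3 from titer 32 to 0.5, at LDB1 6.40 to 21.4, at KLF1 7.70 to 17.5 and at TAL1 7.06 to 15.3. The place of the strongest peak changed between libraries. At LDB1 its summit lay at -5347 to -2607 bp at titers 32 to 4. It lay at 3762 bp at titer 2, and at 344 and 661 bp at titers 1 and 0.5. At GATA1 in 0.62-T16 it was a peak of 387 bp with its summit at -3801 bp. On the scale of log2(fold enrichment + 1), 7 of 8 genes fell with titer (exact permutation test, adjusted p 0.00988 to 0.04), all but LMO2 (adjusted p = 0.0909), beside 57% of all genes. For GFI1B the strongest peak had its summit at -1250 to -754 bp from the outer start in all 7 fixed-antibody libraries. The TSS of TSC1 lies 915 bp upstream of that start, so the trend of GFI1B cannot be told apart from one of TSC1. To set each peak against its own list, its percentile among all peaks of that list was tested as well. As a percentile, 0 of 8 genes passed the adjusted exact permutation test over 12650 genes and 1 of 8, GATA1, passed at an unadjusted p under 0.05, beside 9.74% of all genes that fell. The percentile of its peak lay between 90.8 and 99.8 in that arm, with an r of -0.847 (exact permutation p = 0.0131, adjusted p = 0.365), a rho of -0.929 (p = 0.00675) and an r of -0.895 without the 2 farthest libraries (p = 0.0333). The medians of the percentile over the 14 lists ran from 87.7 for LMO2 to 98.0 for KLF1. The median over the 8 genes was 96.8, beside 75.03 over all 19630 genes, where a gene without a TSS peak counted as 0. In the gene lists examined below it was 95.6 for complex partners and 95.7 for corepressors, so a high percentile was not particular to the 8 genes.

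In the normalized arm, the percentile of the strongest TSS peak did not pass the adjusted exact permutation test against log2(DNA_chrom) in any of the 8 genes. ZFPM1 fell at an unadjusted p under 0.05 (r = -0.815, exact permutation p = 0.0387, adjusted p = 0.756, rho = -0.714), which made 1 of 8 genes beside 1.46% of all genes, and without the 2 farthest libraries r was -0.767 (p = 0.183). The percentile of its peak lay between 89.6 and 98.5 in that arm. GFI1B had an r of -0.631 (exact permutation p = 0.107, adjusted p = 0.79) and a rho of -0.929 (p = 0.00675), and r was -0.79 without the 2 farthest libraries (p = 0.0333).

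**Figure D5:**
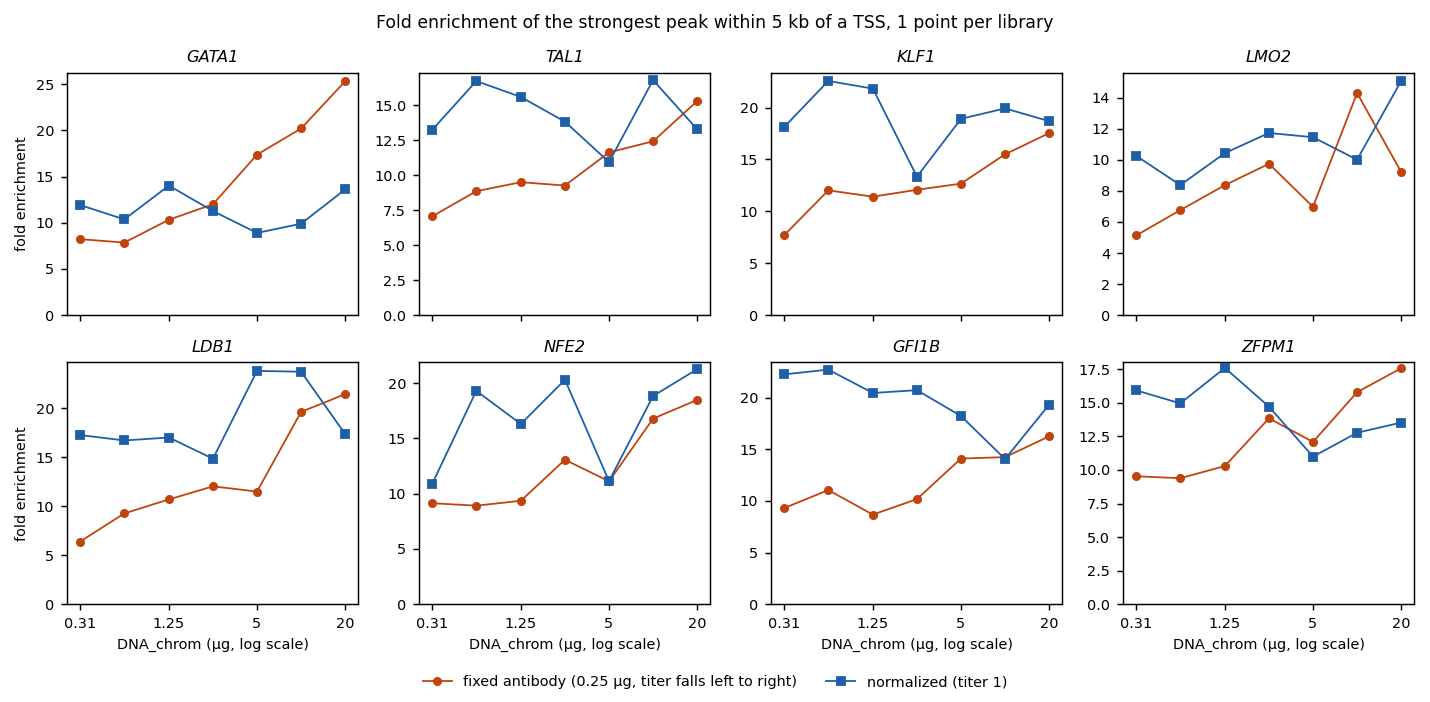
Fold enrichment of the strongest peak reaching within 5 kb of a TSS (y axis) against DNA_chrom (x axis, µg, log scale) for the 8 genes. Orange circles are the 7 fixed-antibody libraries and blue squares the 7 normalized libraries. At GATA1 the fixed-antibody libraries climb from 8.22 to 25.3 while the normalized libraries stay between 8.90 and 14.02.

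GATA1 had the largest ratio of the 8 genes between 10-T1a and 10-T1b, which share 10 µg of DNA_chrom and titer 1. The fold enrichment of its strongest TSS peak was 20.2 in 10-T1a and 9.90 in 10-T1b, a log2 ratio of 1.03, and 97.8% of the 10397 genes with a TSS peak in all 14 lists had a ratio no larger in size. The other 7 genes had log2 ratios from -0.44 for TAL1 to 0.51 for LMO2, beside a median size of 0.29 over all these genes. A region upstream of GATA1, from -6245 to -3677 bp, had fold enrichments of 7.86 to 14.2 in the fixed-antibody libraries and 3.82 to 6.49 in the normalized libraries, and 14.2 against 4.89 in 10-T1a and 10-T1b. In the region behind the HDAC6 starts the order was the other way round, with 4.83 to 13.6 in the fixed-antibody and 14.8 to 24.7 in the normalized libraries. By fold enrichment the arms did not overlap in 3 of the 24 regions of the 8 genes with peaks in all 14 lists: this region and the ZFPM1 region from +48835 to +60036 bp (8.58 to 10.5 and 10.9 to 18.0) were higher in the normalized arm, 2 of 24 beside 5.73% of all such regions, and the upstream GATA1 region was higher in the fixed-antibody arm, 1 of 24 beside 0.206%. Compared by percentile within their lists, the arms did not overlap in 2 of the 24 regions, both higher in the fixed-antibody arm, beside 2.36% of 18467 such regions genome-wide. These were the upstream region of GATA1, with percentiles of 80.0 to 94.1 against 25.6 to 71.0, and the region upstream of the ZFPM1 TSS, with 94.5 to 98.9 against 68.8 to 89.7. In the other direction the count was 0 of 24, beside 4.73%. Whether the input of each arm has a part in these values was not tested.

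Of the 97 merged regions of the 8 windows, 24 had peaks in all 14 lists, which is 24.7%, beside 10.9% of all 170194 regions. The 170194 regions were not limited to gene windows, so the 10.9% is not a share for the windows of other genes. Within 5 kb of a TSS, 12 of 24 regions had peaks in all 14 lists, and of the 73 other regions 12 did, while 21 of the 73 came from a single list. Shares of all regions near a TSS and away from it are not given here, so these counts have none beside them. Leaving out a single list moved the count of 24 to at most 27. Merged regions grow with the longest peak of any list, so counts of regions are lower where peaks were long.

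Genes that act with the 8 factors were examined by the same measures. All 10 genes for complex partners fell with titer in covered share (adjusted p under 0.05, exact permutation test), as did 11 of 14 corepressor genes of GFI1B and ZFPM1, 5 of 8 small Maf and CNC genes and 9 of 13 erythroid target genes, beside 52.3% of all genes. Of 16 transcription factor genes of other lineages, 7 could be tested and 2 fell. TSS peaks in all 14 lists were found for 10 of 10 partners, 14 of 14 corepressors, 7 of 8 Maf and CNC genes, 11 of 13 erythroid targets and 2 of 16 factors of other lineages. Among partners, LYL1, a relative of TAL1, and GATA2, which precedes GATA1 in development, had the highest median percentiles of the strongest TSS peak, 99.6 and 99.1, and SSBP4 and CBFA2T3, a corepressor of the TAL1 complex, the lowest, 74.9 and 71.5. For the corepressors the highest were GATAD2A (99.3) and RBBP4 (99.2), both of the NuRD complex, and the lowest GATAD2B (91.1) and MTA2 (90.7). In the Maf and CNC list NFE2L2, a relative of NFE2, and MAFG, a partner of NFE2, were highest at 99.9 and 97.7, and MAFK and BACH2 lowest at 71.8 and 61.8. Among the targets EPOR, the erythropoietin receptor gene, and TFRC, the transferrin receptor gene, were highest at 97.5 and 97.4, EPB42 was lowest but one at 54.3, and ANK1 had no peak within 5 kb of its listed TSS in any list. PAX6 (92.0) and FOXP3 (81.5) were the 2 factors of other lineages with TSS peaks in all 14 lists, and SOX2 and TBX21 had none in any list.

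KSR1 and ARID1A had the profiles most like the mean of the 8 genes, with Pearson's r of 0.992 and 0.991 over 14 lists, among 12183 genes whose median r was 0.811. In the order of median covered share, NFE2 (83.0%) and GATA1 (76.8%) stood above LMO2 (51.7%) and KLF1 (51.1%), followed by ZFPM1 (39.0%), LDB1 (35.2%), GFI1B (33.8%) and TAL1 (33.0%). Every pair of neighbours in this order overlapped in range over the 14 lists. Compared within each list, GATA1 was above LMO2 and KLF1 above ZFPM1 in all 14, and the other neighbours changed order between lists. Each of the 8 medians was above those of at least 91.7% of genes.

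The lists held 64083 to 82143 peaks at a q-value of at most 1% and covered 32.8 to 75.3 Mb, the fixed-antibody lists 32.8 to 65.3 Mb and the normalized lists 54.4 to 75.3 Mb. Read depth was not used here. Of the erythroid marker genes of K562, 8 of 8 had a TSS peak in all 14 lists, against 3 of 4 T cell, 1 of 4 B cell, 2 of 4 epithelial, 0 of 4 myeloid and 0 of 4 fibroblast marker genes.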

How the data were processed

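H3K27ac ChIP-seq of K562 cells was represented by 14 peak lists, 1 per library. The authors aligned reads with BWA, called peaks with MACS2 in each library against the input its file name gives (1 input for each arm), and deposited each peak's position, its fold enrichment (a ratio to the local background) and -log10 values of p and q. The submitters' processing notes name BWA 0.5.9, CASAVA 1.4 and hg38, whereas the methods name hg19, and positions were read as GRCh38. In the deposited lists -log10 q begins at 1.30, so peaks of at least 2 (q of at most 1%) were used.

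Gene spans and TSSs came from RefSeq (GRCh38.p14) for 15812 of the 19974 protein-coding genes in the table. For 3818 others, LMO2 and NFE2 among them, the strand was taken by symbol from GENCODE. Their TSS was the upstream end of the gene span, and starts within the gene were not known. The remaining 344 genes were left out. No coordinates were converted. The covered share is the percentage of the gene body plus 10 kb on either side under peaks. The percentile of a peak ranks its fold enrichment among the peaks of its list. Genes with a peak in at least 1 list were tested by exact permutation of Pearson's r over 5040 orders of 7 libraries, two-sided, with Benjamini-Hochberg adjustment over all genes tested, and matched differences by 64 sign patterns. Replicate numbers shared by the arms mark the same DNA_chrom, by which the matched differences were paired. The 8 genes and the gene lists were chosen with earlier results of these data known. The text gives the 8 genes in full, for each gene its strongest region near a TSS and up to 3 others by mean percentile, regions found mostly in 1 arm, and for each list the 2 genes with the highest and the 2 with the lowest TSS percentile. Of the 3 genes with the most similar profiles, 1 is not reported here. Other genes and regions named are the neighbours whose TSSs lie in a window and the regions present in all 14 lists, chosen after their values were seen. Widest peaks, region-wise comparison of the arms, and the TSS alternatives by summit and outermost start were also added after the lists had been seen. Functions were tested on simulated data. Python 3.11.15, numpy 2.4.6 and scipy 1.17.1 were used.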

Additional observations from a re-analysis of the deposited data

Results flagged for a closer look

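Among 64 groups of 7 libraries, 1 for each gene, measure and arm, 9 had a library far from the other 6. The 7 libraries of a group differ in DNA_chrom, and in the fixed-antibody arm also in titer. Several measures use the same peaks, so the count of 9 cannot be set against a rate by chance. For the covered share these were 0.31-T1 at NFE2 (82.1%, the nearest library 85.3%) and 0.31-T1 at GFI1B (30.57%, nearest 34.9%). For the widest peak they were 10-T1b at LMO2 (14400 bp, nearest 9643 bp), 20-T0.5 at LDB1 (9168 bp, nearest 4605 bp), 20-T1 at NFE2 (20750 bp, nearest 11788 bp) and K562-H3K27ac-1.25-T1 at GFI1B (10650 bp, nearest 9043 bp). For the percentile of the strongest TSS peak they were 2.5-T1 at KLF1 (94.53, nearest 97.9), 0.31-T32 at LDB1 (83.69, nearest 93.4) and 10-T1b at GFI1B (94.16, nearest 98.3). The list of 0.31-T1, flagged for the covered share, was the smallest of its arm, with 68137 peaks and 54.4 Mb covered. The other normalized lists held at least 77091 peaks and covered at least 65.0 Mb.

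The trend of the covered share with DNA_chrom differed between the arms at an unadjusted p under 0.05 in 5 of 8 genes, beside 20.2% of all genes. The r of the difference was -0.968 for NFE2, -0.952 for LMO2, -0.912 for GFI1B, -0.902 for LDB1 and -0.808 for GATA1 by the exact permutation test, and none passed the adjustment over all genes. Per Mb covered by the list, the r of GFI1B and GATA1 changed sign, to 0.275 and 0.415.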

How the results depend on the processing

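Of 704 values recomputed under an alternative, 566 kept their direction and their side of the threshold, 85 lost a call, 15 gained one, 17 moved and 21 changed sign. The cause was not tested for any of these. The count of genes whose covered share fell with titer, 5, was 3 with Spearman's rho and 2 to 5 without a single library. Per Mb covered by the list it was 0, with r at 0.740 for GATA1, 0.679 for TAL1, 0.892 for KLF1, 0.535 for LDB1, 0.689 for GFI1B and 0.731 for ZFPM1. On that scale 0 genes were higher in the normalized arm at all 6 amounts, and the mean difference in bases per Mb was -61.9 for GATA1, -69.4 for TAL1, -33.9 for KLF1, -34.2 for LDB1, -33.0 for GFI1B and -103 for ZFPM1. The r of the difference between the arms was then 0.415 for GATA1, 0.550 for TAL1, 0.676 for KLF1, 0.275 for GFI1B and 0.666 for ZFPM1.

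The count of 6 genes higher at all 6 amounts was 3 in the gene body alone, 6 without any single pair and 6 with no replicate block, that is without pairing the arms by DNA_chrom. The mean difference of TAL1 was -1.24 at a -log10 q of at least 5 and -0.864, -0.479 and -1.29 without the pair at each of the 3 lowest amounts, with a range of -1.29 to 1.69 over all pairs left out. For the TSS peak against titer, 0 genes by percentile became 7 on the scale of log2(fold enrichment + 1). The 6 genes whose widest peak shortened were 3 with Spearman's rho, 2 on a linear scale of titer and 0 to 4 without a single library. The 24 regions in all 14 lists were 53 with 50 kb flanks and 24 to 27 without a single list, and 3 of the 88 peaks of 10-T1b overlapped reciprocally by at least 50% in every other list. Trends in the normalized arm and of the difference between the arms stayed at 0 adjusted calls in all alternatives run, but per Mb the normalized-arm trend of the covered share changed sign, from a median r of 0.53 over the 8 genes to -0.787. Read depth was not used here, so a gap between peaks may be a stretch below the threshold and not one without acetylation.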

Other observations

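The share of each window under peaks in every list differed between the genes. In all 14 lists, 38.4% of the GATA1 window, 28.8% of KLF1, 28.1% of NFE2, 16.1% of LDB1, 14.03% of LMO2, 13.5% of GFI1B, 10.99% of TAL1 and 7.60% of ZFPM1 were covered. In the 7 normalized lists together, 75.5% of the NFE2 window and 39.4% of LMO2 were covered in every list, against 28.1% and 14.4% in the 7 fixed-antibody lists, whereas TAL1 had 15.3% and 15.6%.

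A few weak regions, picked for this split, had peaks in at least 5 lists of 1 arm and at most 1 of the other. The share of all 170194 regions with such a split is not given here, so their number cannot be set against it. A region upstream of LMO2, from -7799 to -6886 bp, had peaks in 5 of 7 fixed-antibody and 0 of 7 normalized lists, with fold enrichments of 3.62 to 6.03. A region in the ZFPM1 gene body, from +68579 to +69754 bp, had peaks in 6 and 0 lists, at 3.78 to 5.23. Upstream of the inner GFI1B start, a region from +32382 to +32806 bp of the outer start had peaks in 1 and 5 lists, at 3.21 to 5.69. Of the erythroid targets, ANK1, a gene for a red cell membrane protein, had no peak within 5 kb of its listed TSS in any list, and its window was covered over 8.75% to 21.4%.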
